A study of Mus musculus with 12 samples.

Results

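Wild-type mouse embryonic stem cells (ESCs) kept in 2i medium were compared with wild-type ESCs kept in medium with fetal bovine serum (FBS). The comparison used 8 of the 12 libraries of the series, 4 in 2i and 4 in FBS, and 12329 genes of 23503. A gene entered when it reached 1 FPKM in at least 4 of the 12 libraries. FPKM counts sequenced fragments relative to the length of the transcript and to the size of the library. The series' design names this contrast for a gene set analysis of the media.

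ESCs are cultured cells derived from the early embryo that can renew and still form all tissues. Signals that push them toward differentiation run through the FGF, MEK and ERK kinases and through the GSK3 kinase, which marks beta-catenin for destruction. The 2i medium blocks MEK and GSK3 and holds the cells in the naive state, like the epiblast before implantation. Cells in serum with LIF are also pluripotent, but a culture holds a mixture of cells closer to and further from that state.

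The libraries in 2i came from wild-type ESCs in a serum-free base of DMEM/F12 and Neurobasal with the supplements N2 and B27. The kinase inhibitors were CHIR99021, which blocks GSK3, at 3 µM, and PD0325901, which blocks MEK, at 1 µM. The serum libraries came from wild-type ESCs in high-glucose DMEM with 15% FBS, nonessential amino acids and glutamine. LIF, a cytokine that acts through STAT3, was present in both media at 1000 units/mL, so the media differ in base, serum and inhibitors at once, and these cannot be told apart here. The remaining 4 libraries, ESCs labelled as Tfcp2l1 knockout in 2i, entered the filter that chose the tested genes and the estimate of spread. A few of their values are given for reference. The labels used here do not name the ESC line or say whether feeder cells were used. Nothing in them says that the 4 libraries of a group were grown apart. The spread behind each p-value is therefore that between these samples alone and may be technical.

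The 8 libraries had 11542 to 11799 genes at 1 FPKM or more. Their read number is unknown. Low entries gave relative depths of 0.985 to 1.311 times that of 2i replicate 1, from a ratio that 9.82% to 12.6% of those entries shared. Pairs of libraries, compared over genes on the log2(FPKM + 1) scale, had a Pearson correlation of 0.981 to 0.993 in 2i and 0.989 to 0.993 in FBS. Between the media it was 0.896 to 0.918, and genes are not independent replicates. The markers of the labelled cell type were present in both media: 10 of 10 ESC markers were measured, and their summed level was 3865 to 4624 FPKM in 2i and 3142 to 4086 FPKM in FBS. Genes of chromosome 6 shifted together from library to library, with a median offset of 0.046, 0.185, -0.11 and 0.211 (log2) in 2i replicates 1 to 4 and 0.0604, -0.0102, -0.165 and -0.0598 in FBS. Chromosome 6 holds Nanog, Asns, Peg10, Tuba3a, Dppa3, Mitf, Gadd45a, Phc1, Mest, Tead4, Tlx2, Kdm3a, Slc2a3, Cdkn1b, Gapdh, Mxd1 and Ezh2, and the part of this shift in their differences was measured by removing the chromosome's offset in each library, which changed the call of none of these genes. The difference of Ezh2, which was not called, turned from 0.062 to -0.065, and Srf, on chromosome 17, came to an adjusted p of 0.049.

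Replicate 4 stood apart from replicates 1 to 3 over a stretch of chromosome X, in both media. The stretch runs from Nudt11 to Ftsj1 (mm9, chromosome X, 5624625 to 7829532). It holds 35 tested genes, counted without those with a mean log2(FPKM + 1) under 1. Its borders were set where both wild-type replicate 4 libraries lay more than 0.5 (log2) above the median of the other 3 of their group. The counts of genes past that margin thus follow in part from how the borders were chosen. In 2i replicate 4 the median gene of the stretch was at 2.03 times the mean of the other 3 libraries of its group, and 34 of 35 genes lay more than 0.5 (log2) above their median. In FBS replicate 4 the ratio was 2.00, and 35 of 35 genes lay above by that margin. Over the 373 other tested genes of chromosome X that reached that mean, the ratios were 1.03 and 0.969. In the 4 libraries labelled knockout the ratio in the stretch was 0.967 to 1.02. Both media carry this difference alike, and the comparison was also made without both replicate 4 libraries. Without them, 4170 genes were called higher in 2i and 4248 lower. Named genes whose call did not hold without them were Bgn, Cdk4, Ctsd, Dnmt1, Mxd1, Phlda1 and Slc2a3, with adjusted p of 0.222, 0.0588, 0.0524, 0.0671, 0.0745, 0.126 and 0.0929.

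**Figure D1:**
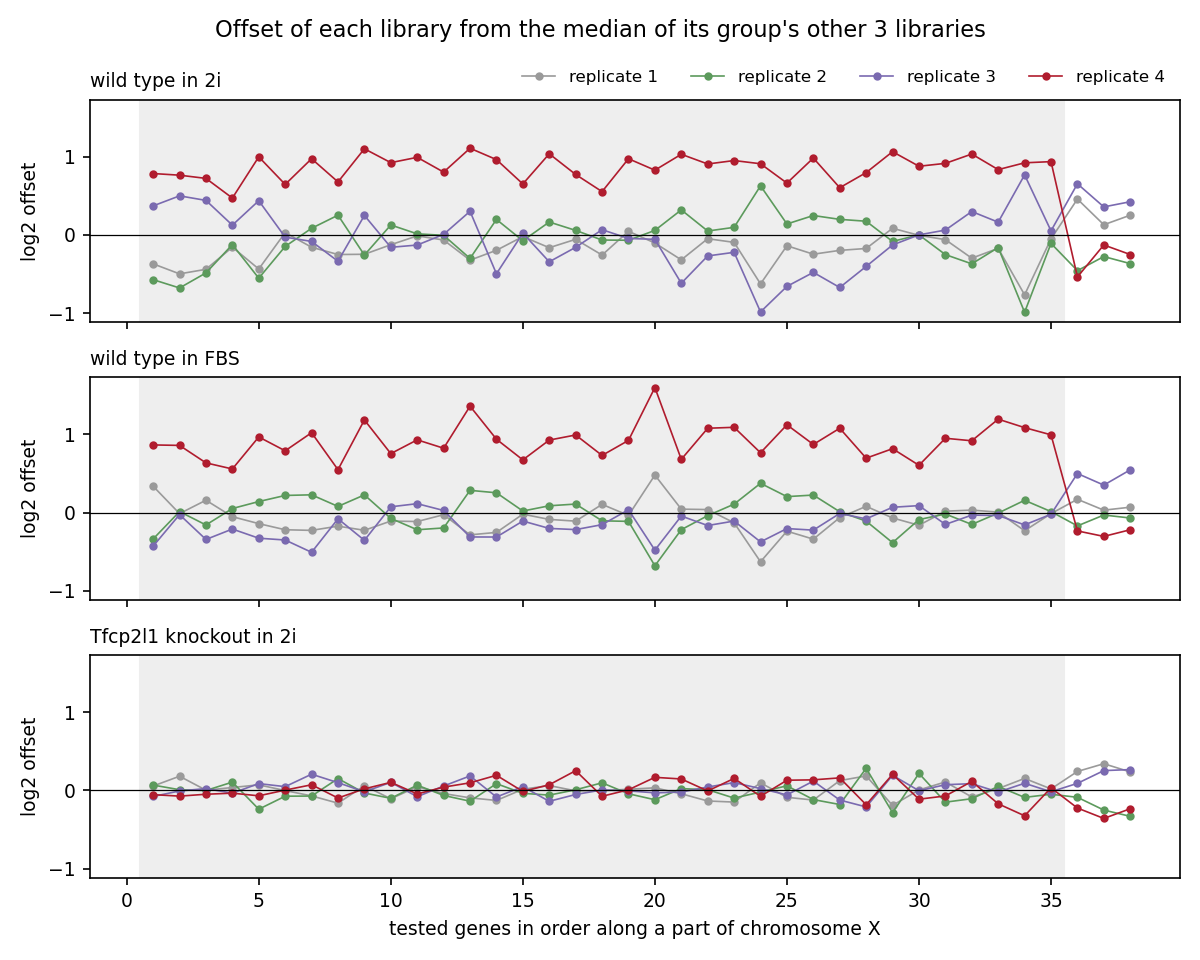
Offset of each library on the log2(FPKM + 1) scale (y axis) from the median of the other 3 libraries of its group. Neighbouring tested genes, without those of low mean level, are in order along chromosome X (x axis), with the 35 genes of the stretch shaded. Replicate 4 (red) lies near 1 in wild type in 2i and in wild type in FBS, near 0 in the libraries labelled knockout, and below 0 in the 3 genes drawn beyond the stretch.

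Most genes differed between the media, usually by little. Of 12329 genes, 8928 (72.4%) passed a limma adjusted p of 0.05, and these are the genes named as called, higher or lower below. There were 4579 higher in 2i (37.1%) and 4349 lower (35.3%), and the median absolute difference over all genes was 0.345 on the log2(FPKM + 1) scale. That scale is used for every log2 difference here, always as 2i minus FBS, and it understates the change of genes of low level. At a log2 difference of at least 1, called 2-fold below, 874 genes were higher (7.09%) and 689 lower (5.59%). These shares over all genes are the background for the list counts below. For 7703 genes (62.5%) the 4 values in 2i did not overlap the 4 in FBS, with 2i above for 3947 (32.0%) and below for 3756 (30.5%). Differences of at least 4 were rarer, with 5 genes higher and 11 lower.

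**Figure D2:**
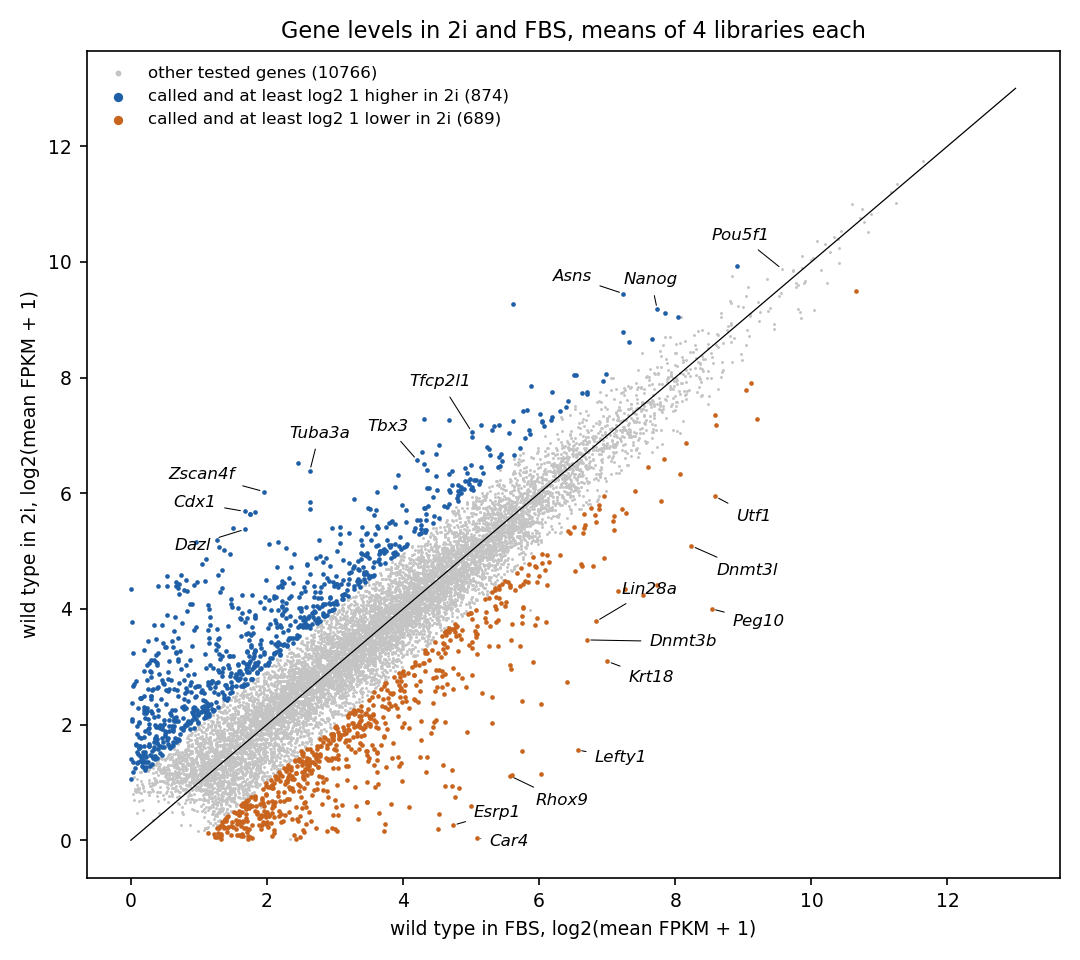
Mean level of each of the 12329 tested genes in FBS (x axis) and in 2i (y axis), both as log2(mean FPKM + 1) over 4 libraries, with the line of equal levels. Blue points are the 874 genes called and at least log2 1 higher in 2i, orange points the 689 lower, and named genes are those whose values are given in the text.

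Fibroblast marker transcripts also differed between the media. The summed level of the 21 markers was 296.7 to 466.1 FPKM in 2i and 143.9 to 184.7 FPKM in FBS, and it was 522.5 to 870.3 FPKM in the libraries labelled knockout. Of 19 tested markers, 12 were called higher in 2i and 4 lower, among them Thy1 and Twist2, and Fap and Meox2 stayed under the filter. None was at 0 in both groups. In a fit with the mean log2 level of these markers as a covariate, 2694 genes were called higher in 2i and 2974 lower, 5668 in all against 8928. The level of these markers differs between the groups by itself, so this fit removes part of the medium's difference along with it, and the part of fibroblast RNA in the results was not tested further. Named genes whose call did not hold in that fit were Pou5f1, Dppa5a, Pramel7, Id2, Phc1, Ctsd, Tdh, Crabp1, Cdk4, Cldn4, Cdk2, Dnmt1, Uhrf1, Tfe3, Cdx2, Socs3, Slc2a3, Phlda1, Lif, Dmrt1, Uqcrfs1, Suz12, Gapdh and Mxd1.

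The factors of the naive state were higher in 2i, while Pou5f1 and Sox2, which all pluripotent cells share, overlapped between the media. Of the naive pluripotency list, 21 of 22 tested genes were called higher and 1 lower (median log2 difference 1.12), against a median of 0.014 over all tested genes. Tbx3, Tfcp2l1, Prdm14, Klf4 and Nanog were 2-fold or more higher. In bulk RNA, fewer cells that express a gene and less of its RNA per cell cannot be told apart, which holds for every level below.

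Tfcp2l1, a grainyhead-like factor downstream of LIF and STAT3 (chromosome 1, 120524522 to 120581745 on mm9), stood at 133, 143, 112 and 139 FPKM in 2i and at 25.8, 37.1, 30.7 and 31.5 FPKM in FBS. Each value in 2i exceeded 110 FPKM and each in FBS lay under 40 FPKM (log2 difference 2.05, SE 0.10, adjusted p = 3.09e-09). In the libraries labelled as its knockout, also in 2i, the level was 78.9 ± 5.92 FPKM (SD, n = 4), between the wild-type groups. Their label is kept as given, and which part of the gene the knockout removes is not given in the labels used here. Nanog, a homeobox factor of the core network (chromosome 6, 122657586 to 122663796 on mm9), stood at 582, 607, 549 and 576 FPKM in 2i and at 197, 213, 217 and 220.2 FPKM in FBS. The spread within each medium was narrow, and the lowest 2i library held more than any FBS library (log2 difference 1.44, SE 0.046, adjusted p = 8.61e-11). Prdm14, a factor that represses FGF signalling and the de novo methyltransferases, stood at 16.4, 17.3, 15.8 and 16.9 FPKM in 2i and at 2.99, 4.25, 2.78 and 4.62 FPKM in FBS (log2 difference 1.94, SE 0.12, adjusted p = 1.78e-08). Tbx3, a T-box factor of the naive network, stood at 95.1, 95.5, 92.3 and 93.3 FPKM in 2i and at 13.3, 15.8, 19.6 and 21.2 FPKM in FBS and gave the largest difference of the list (log2 difference 2.38, SE 0.12, adjusted p = 4.43e-09). All 4 values in 2i lay within 4 FPKM of each other. Klf4, a Krüppel-like factor under LIF control, varied more in 2i, where it stood at 281, 346, 202 and 227 FPKM, with 85.1, 102, 100.8 and 79.2 FPKM in FBS (log2 difference 1.49, SE 0.14, adjusted p = 8.58e-07). Esrrb, an orphan nuclear receptor and a target freed by GSK3 inhibition, was at 191 ± 11.5 FPKM in 2i and 117 ± 2.53 FPKM in FBS (SD, n = 4 each) and Zfp42 at 55 ± 1.35 FPKM in 2i and 29.8 ± 1.59 FPKM in FBS, and both were called higher without reaching 2-fold, by 0.70 and 0.86. Dppa5a, the most abundant member, stood at 1878, 2019, 2573 and 1717 FPKM in 2i and at 1235, 1417, 2175 and 1371 FPKM in FBS, and the groups overlapped (log2 difference 0.42, adjusted p = 0.0268). Its call did not hold without 2i replicate 3, or without FBS replicate 1, 2 or 4.

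Dppa3, the maternal factor that protects methylation in the zygote, was the only naive gene called lower. It stood at 9.86, 13.7, 13.1 and 12.4 FPKM in 2i and at 48.4, 55.5, 38.2 and 48.5 FPKM in FBS, without overlap (log2 difference -1.87, SE 0.11, adjusted p = 1.84e-08), and was named after its values were seen.

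The general pluripotency list leaned the other way. Of it, 3 of 14 tested genes were called higher and 7 lower (median log2 difference -0.30). These were 21.4% and 50.0%, against 37.1% higher and 35.3% lower over all genes. Pou5f1, which encodes Oct4, stood at 965, 992, 843 and 945 FPKM in 2i and at 755, 705, 716 and 866 FPKM in FBS, and FBS replicate 4 exceeded 2i replicate 3 (log2 difference 0.30, SE 0.067, adjusted p = 0.00126; exact two-sided permutation p = 0.0571). Sox2 stood at 182, 174, 208 and 174 FPKM in 2i and at 171, 212, 195 and 209.9 FPKM in FBS, and the groups overlapped (log2 difference -0.091, SE 0.081, adjusted p = 0.325). All 4 values of Sox2 in 2i lay within the range of those in FBS. Lin28a, the RNA-binding protein that blocks let-7 maturation, was far lower in 2i, at 15, 16.7, 7.16 and 12.2 FPKM in 2i and at 127, 89.5, 114 and 123 FPKM in FBS (log2 difference -3.10, SE 0.20, adjusted p = 2.36e-08). Utf1, a chromatin-associated factor, stood at 55.9, 62.7, 59.3 and 64.8 FPKM in 2i and at 396, 358, 388 and 389 FPKM in FBS (log2 difference -2.64, SE 0.057, adjusted p = 6.59e-12). Both sets of values were well separated, and the highest 2i value of either gene was under the lowest in FBS by more than 70 FPKM. Foxd3, a forkhead factor, went in the opposite direction, at 41.4, 45.9, 40.5 and 39 FPKM in 2i and at 5.41, 6.76, 6.65 and 10.8 FPKM in FBS (log2 difference 2.38, SE 0.15, adjusted p = 2.57e-08). Tdgf1, the Nodal co-receptor Cripto and the most abundant gene of the Nodal list, overlapped between media at 252 ± 29.8 FPKM in 2i and 237 ± 31.5 FPKM in FBS.

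**Figure D3:**
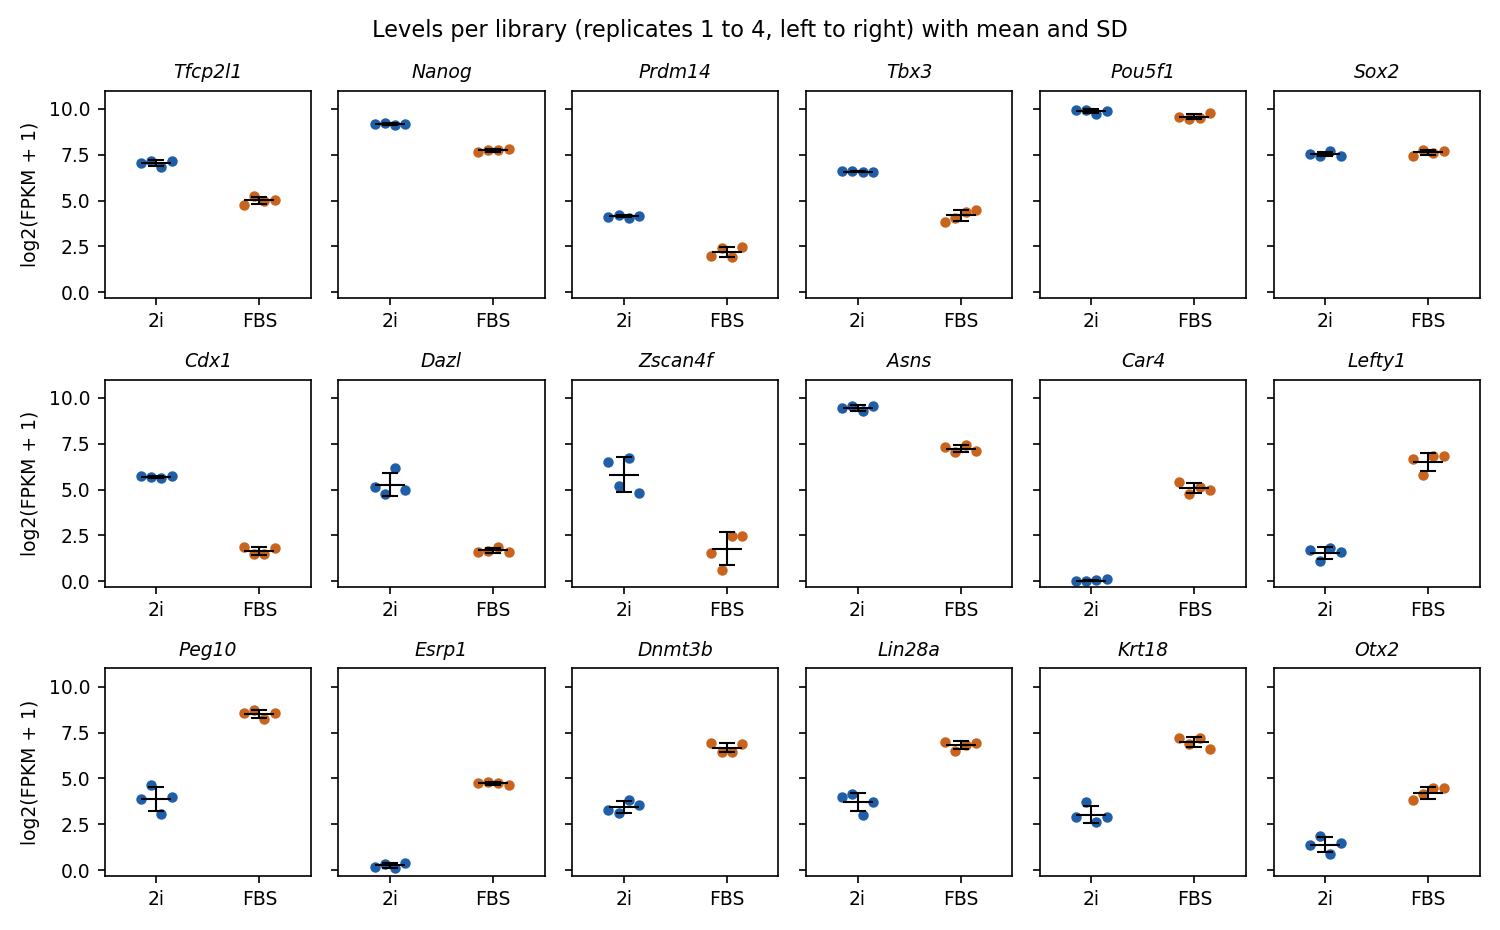
Level of 18 genes in each library as log2(FPKM + 1) (y axis) in 2i (blue) and FBS (orange), replicates 1 to 4 from left to right, with mean and SD as bars. Pou5f1 and Sox2 lie at similar heights in both media, whereas the groups of the other 16 genes do not overlap, and Zscan4f shows the widest spread.

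Genes of the formative and primed epiblast, the states after implantation, were mostly lower in 2i. Of this list, 2 of 21 tested genes were called higher and 16 lower (median log2 difference -1.47), and 15 of the 16 were 2-fold or more lower. Otx2, the homeobox factor that starts the exit from the naive state, stood at 1.6, 2.64, 0.827 and 1.75 FPKM in 2i and at 13.1, 16.6, 21.4 and 21.1 FPKM in FBS (log2 difference -2.83, SE 0.20, adjusted p = 6.03e-08). Fgf5, a marker of primed epiblast named after its values were seen, stood at 0.0694, 0.0632, 0.0846 and 0.141 FPKM in 2i and at 3.48, 2.74, 2.33 and 4.7 FPKM in FBS (log2 difference -1.96, SE 0.13, adjusted p = 4e-08). Every 2i value of Fgf5 was under 0.2 FPKM and every FBS value above 2 FPKM. Pou3f1, another POU factor of primed cells, was also lower (2.48 against 12.2 FPKM, log2 difference -1.92), as was the tight junction gene Cldn6 (5.69 against 84 FPKM, log2 difference -3.67). The 2 members called higher were Zic2 (43.8 against 12.9 FPKM, log2 difference 1.71) and the ephrin receptor Epha4 (9.09 against 2.4 FPKM, log2 difference 1.56), and Etv5, the most abundant member, was not called (log2 difference -0.0099, SE 0.13, adjusted p = 0.949).

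Transcripts of the trophoblast, the lineage of the placenta, were lower in 2i. Of the trophoblast list, 1 of 16 tested genes were called higher and 15 lower (median log2 difference -1.49), and 10 were 2-fold or more lower. Krt18, a keratin of simple epithelia, stood at 6.54, 11.9, 5.1 and 6.57 FPKM in 2i and at 148, 118, 145 and 97.3 FPKM in FBS (log2 difference -3.95, SE 0.22, adjusted p = 8.89e-09). Its partner Krt8 stood at 3.39, 6.72, 1.85 and 4.55 FPKM in 2i and at 78.5, 59, 65.5 and 53.3 FPKM in FBS (log2 difference -3.74, SE 0.26, adjusted p = 5.74e-08). The keratins Krt7 (3.1 against 23.5 FPKM, log2 difference -2.60) and Krt19 (0.912 against 23.5 FPKM, log2 difference -3.72), the bHLH factor Hand1 (0.209 against 12.3 FPKM, log2 difference -3.45) and the FGF receptor Fgfr2 (0.391 against 11.5 FPKM, log2 difference -3.15) were lower as well. Wnt7b, a Wnt ligand, stood at 0.217, 0.341, 0.374 and 0.552 FPKM in 2i and at 20.7, 30.7, 19.08 and 17.7 FPKM in FBS (log2 difference -4.04, SE 0.15, adjusted p = 2.71e-10). Among 10 trophoblast markers, 9 of 9 tested were called lower, and their summed level was 38.7 to 59.0 FPKM in 2i and 260.6 to 337.6 FPKM in FBS. The defining factors were low in both media: Cdx2 was at 0.666 ± 0.0682 FPKM in 2i and 1.5 ± 0.328 FPKM in FBS, Gata3 at 0.742 ± 0.17 FPKM in 2i and 2.23 ± 0.524 FPKM in FBS, and Elf5 averaged 0.0456 FPKM in 2i and 0.243 FPKM in FBS. Tead4, which acts at the top of the trophoblast program but is also made in ESCs, was the member called higher (20.6 against 7.49 FPKM, log2 difference 1.33). How much of the difference came from trophoblast-like cells in FBS was not tested.

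The lists of the germ layers were small at this depth. For streak and mesoderm, 1 of 8 tested genes were called higher and 5 lower (median log2 difference -0.54), and for neuroectoderm, 3 of 8 tested genes were called higher and 5 lower (median log2 difference -0.82). Those lower were 62.5% of each list, against 35.3% of all genes, and those higher 12.5% and 37.5%, against 37.1%. Goosecoid (Gsc), an organizer factor, was higher in 2i, at 7.5, 10.4, 8.39 and 8.18 FPKM in 2i and at 0.425, 0.608, 0.748 and 0.789 FPKM in FBS (log2 difference 2.55, SE 0.12, adjusted p = 1.64e-09). Bmp4, a ligand that induces mesoderm and germ cells, was lower, at 1.27, 1.05, 1.43 and 1.9 FPKM in 2i and at 12.1, 14.8, 8.4 and 14.3 FPKM in FBS (log2 difference -2.46, SE 0.16, adjusted p = 2.72e-08). The neural genes Tubb3 (12.7 against 36.4 FPKM, log2 difference -1.56), Nes (1.69 against 6.28 FPKM, log2 difference -1.42) and Sox11 (2.12 against 7.05 FPKM, log2 difference -1.36) were lower, and Msi1 was higher (21.4 against 9.04 FPKM, log2 difference 1.17). The neural-like markers summed to 16.8 to 31.9 FPKM in 2i and 45.6 to 68.2 FPKM in FBS, while Pax6 averaged 0.115 and 0.866 FPKM. Of the endoderm list, 1 of 12 tested genes were called higher and 9 lower (median log2 difference -0.82), with Lrp2 (0.469 against 4.71 FPKM, log2 difference -1.94) and Amn (0.346 against 2.98 FPKM, log2 difference -1.57), the receptors of the visceral endoderm, lower. Visceral endoderm markers summed to 6.46 to 8.81 FPKM in 2i and 14.3 to 24.4 FPKM in FBS, and Afp averaged 0.00385 and 0.0295 FPKM. Sparc, a matrix protein of parietal endoderm and fibroblasts, was the endoderm gene called higher (log2 difference 1.56, SE 0.11, adjusted p = 5.9e-08). Of 12 tested parietal endoderm markers 4 were called higher and 5 lower, of 7 epiblast-like markers 1 and 5, and of 3 tested streak-like markers 1 and 0.

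Genes of the 2-cell stage and of the germline were higher in 2i, and several of the 2-cell stage spread widely between the 2i libraries. Of the 2-cell-like list, 14 of 14 tested genes were called higher and 0 lower (median log2 difference 2.90), and 12 were 2-fold or more higher. Zscan4f, a zinc finger gene that bursts in a few ESCs at a time, stood at 91.2, 35.9, 103 and 27.2 FPKM in 2i and at 1.92, 0.513, 4.49 and 4.58 FPKM in FBS (log2 difference 4.04, SE 0.47, adjusted p = 5.87e-06). Replicates 1 and 3 held more than 90 FPKM and replicates 2 and 4 under 40 FPKM, yet none overlapped FBS. Replicates 1 and 3 were also the higher ones for Tmem92, at 32.9, 15.6, 31.9 and 10.9 FPKM in 2i and at 0.206, 0.0836, 0.978 and 0.514 FPKM in FBS (log2 difference 3.94, SE 0.31, adjusted p = 1.76e-07). Gm6763 was at 67.6, 29.6, 74.4 and 23.4 FPKM in 2i and 1.7, 0.385, 3.44 and 3.88 FPKM in FBS, and Pramel20 at 31.8, 13.6, 31.3 and 9.55 and 0.509, 0.189, 1.16 and 1.13 FPKM. The genes of the Zscan4, Usp17l and Pramel families have near-identical copies that share reads, so their members are not separate measurements. Eif1a, the most abundant member, differed least (log2 difference 0.44, SE 0.041, adjusted p = 6.66e-07). In the libraries labelled knockout, also in 2i, Zscan4f was at 130.1 ± 33.2 FPKM and Tmem92 at 48.8 ± 9.9 FPKM (SD, n = 4 each).

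Of the germline list, 18 of 22 tested genes were called higher and 2 lower (median log2 difference 0.81). Dazl, an RNA-binding protein of germ cells, stood at 33.6, 26.1, 71.8 and 30.8 FPKM in 2i and at 2.01, 2.15, 2.69 and 1.96 FPKM in FBS (log2 difference 3.59, SE 0.24, adjusted p = 3.75e-08). The testis tubulin Tuba3a stood at 82.6, 75.1, 99 and 72.7 FPKM in 2i and at 5.35, 3.98, 6.02 and 5.37 FPKM in FBS (log2 difference 3.75, SE 0.11, adjusted p = 6.98e-11). Replicate 3 was the highest of the 2i libraries for both, and neither overlapped FBS. The meiotic gene Hormad1 (11.5 against 1.2 FPKM, log2 difference 2.51), the ribosomal retrogene Rpl10l (90.2 against 18.8 FPKM, log2 difference 2.21) and Tex19.1, a guard against retrotransposons and the most abundant member (95 against 51.4 FPKM, log2 difference 0.87), were higher too. Rhox9, a homeobox gene of the X-linked Rhox cluster, was the strong exception, at 1.2, 1.15, 1.23 and 1.06 FPKM in 2i and at 47.3, 41.5, 48.9 and 48.9 FPKM in FBS (log2 difference -4.46, SE 0.084, adjusted p = 4.82e-12). Dmrt1 was the other member called lower (7.13 against 13.7 FPKM, log2 difference -0.87).

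Other genes among the largest differences were of varied function. Cdx1, a caudal-type homeobox factor switched on by Wnt signals (chromosome 18, 61178516 to 61195853 on mm9), stood at 51.7, 51, 47.7 and 51.5 FPKM in 2i and at 2.61, 1.79, 1.75 and 2.56 FPKM in FBS (log2 difference 4.03, SE 0.12, adjusted p = 6.49e-11). Its 4 values in 2i lay between 47 and 52 FPKM, and the libraries labelled knockout held 30.5 ± 4.86 FPKM. Ppp1r14d, an inhibitor of protein phosphatase 1 (chromosome 2, 119043859 to 119055601 on mm9), stood at 23.1, 25.3, 12.8 and 19.2 FPKM in 2i and at 0.483, 0.299, 0.552 and 0.465 FPKM in FBS (log2 difference 3.83, SE 0.16, adjusted p = 7.08e-10). In the libraries labelled knockout Ppp1r14d was at 0.101 ± 0.0949 FPKM, a level under that in FBS although the medium was 2i. Xlr3c (23.1 ± 11.9 FPKM in 2i and 0.659 ± 0.424 FPKM in FBS), Fkbp6 (32.6 ± 10.1 FPKM in 2i and 1.44 ± 0.498 FPKM in FBS) and Dio3 (19.12 ± 6.2 FPKM in 2i and 0.722 ± 0.323 FPKM in FBS), all higher in wild-type 2i, were at 2.6 ± 0.746 FPKM, 6.92 ± 2.4 FPKM and 5.69 ± 1.76 FPKM in the libraries labelled knockout. Xlr3c has close copies on chromosome X, Fkbp6 is a co-chaperone needed in meiosis, and Dio3 inactivates thyroid hormone. Obox6, an oocyte-specific homeobox gene (26.3 ± 5.44 FPKM in 2i and 1.07 ± 0.451 FPKM in FBS), and Elobl (50.2 ± 10.0 FPKM in 2i and 2.54 ± 0.992 FPKM in FBS) completed the 12 largest, which were chosen among genes whose groups do not overlap.

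Among genes lower in 2i, Car4, a membrane-bound carbonic anhydrase (mm9, chromosome 11, 84771256 to 84779556), came first. It stood at 0, 0, 0.0335 and 0.0698 FPKM in 2i and at 41.3, 25.6, 33.8 and 30.7 FPKM in FBS, so that it was listed at 0 in 2 of the 4 libraries (log2 difference -5.02, SE 0.15, adjusted p = 7.94e-11). Esrp1, the splicing regulator of epithelial cells (chromosome 4, 11259185 to 11313930 on mm9), stood at 0.136, 0.239, 0.0918 and 0.319 FPKM in 2i and at 25.5, 27.3, 25.5 and 24.1 FPKM in FBS (log2 difference -4.48, SE 0.12, adjusted p = 2.71e-11). Every 2i library held less than 0.4 FPKM of Esrp1 and every FBS library more than 24 FPKM. Slc40a1, the iron exporter ferroportin, stood at 0.0964, 0.211, 0.129 and 0.147 FPKM in 2i and at 19, 31.9, 15.5 and 20.6 FPKM in FBS (log2 difference -4.26, SE 0.16, adjusted p = 3.38e-10). S100a4, a calcium-binding protein of motile cells, was at 1.2 ± 0.486 FPKM in 2i and 47.6 ± 9.66 FPKM in FBS, Crmp1, a cytoskeletal protein of neurons, at 0.50 ± 0.264 FPKM in 2i and 30.9 ± 4.29 FPKM in FBS, and Ina, an intermediate filament of neurons, at 0.881 ± 0.162 FPKM in 2i and 27.2 ± 3.42 FPKM in FBS (SD, n = 4 each). Plac8 was at 0.681 ± 0.355 FPKM in 2i and 26 ± 6.41 FPKM in FBS, where FBS replicate 2 lay apart from the other FBS libraries at 16.5 FPKM. In the libraries labelled knockout these genes stayed closer to wild type in 2i, with Car4 at 1.18 ± 0.509 FPKM, Esrp1 at 1.32 ± 0.45 FPKM and S100a4 at 2.11 ± 0.601 FPKM.

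Some genes were near absent in one medium. There were 33 genes with at least 1 FPKM in all 4 2i libraries and under 0.2 FPKM in all 4 FBS libraries, and 39 with the reverse. The 2i side included the homeobox gene Tlx2, which stood at 8.54, 10.4, 4.31 and 10.5 FPKM in 2i and at 0.0241, 0.0268, 0 and 0.0298 FPKM in FBS, the serotonin receptor Htr5a (3.25 against 0.0122 FPKM, log2 difference 2.04) and the T cell receptor subunit Cd3g (5.47 against 0.0276 FPKM, log2 difference 2.64), named after their values were seen. The FBS side included Nrk, a kinase of the placenta (0.117 against 7.13 FPKM, log2 difference -2.86), the placental gene Plac1 (0.021 against 2.3 FPKM, log2 difference -1.68), Ldoc1 (0.11 against 4.82 FPKM, log2 difference -2.39) and the lysophospholipase Enpp2 (0.0582 against 3.19 FPKM, log2 difference -1.96). Nrk, Plac1 and Ldoc1 lie on chromosome X.

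Lists of ERK and Wnt target genes were compared, since the 2i inhibitors act on these signals. Target RNA does not measure the signals themselves, and the media also differ in base and serum. Of the ERK feedback and target list, 4 of 25 tested genes were called higher and 16 lower (median log2 difference -0.55), a share of 64.0% lower against 35.3% over all genes. Spry4, an inhibitor of receptor tyrosine kinase signalling, stood at 2.37, 2.75, 0.972 and 3.27 FPKM in 2i and at 16.5, 22.5, 15 and 19.15 FPKM in FBS (log2 difference -2.57, SE 0.20, adjusted p = 1.46e-07). The ERK phosphatase Dusp6 stood at 16.7, 15.2, 14.6 and 15.7 FPKM in 2i and at 43.3, 51.5, 40.4 and 42 FPKM in FBS (log2 difference -1.45, SE 0.10, adjusted p = 4.33e-08), and its relative Dusp4 was lower too (4.44 against 16.9 FPKM, log2 difference -1.69). The immediate early factor Egr1 was lower (25.8 against 60.4 FPKM, log2 difference -1.22). The list was not uniform: Spp1, osteopontin, was its most abundant member and higher in 2i (974 against 478 FPKM, log2 difference 1.03), and Spry2, Phlda1 and Lif were slightly higher, by 0.28, 0.25 and 0.41. Etv5 was not called, as given above.

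Of the Wnt target list, 9 of 20 tested genes were called higher and 9 lower. The median log2 difference was -0.072, and Axin2, Sp5 and Cdx1 were among those higher. Axin2, a feedback inhibitor of the pathway, stood at 13.9, 11, 15.1 and 13.1 FPKM in 2i and at 2.7, 1.62, 3.17 and 2.63 FPKM in FBS (log2 difference 2.03, SE 0.12, adjusted p = 1.95e-08), and Sp5, a zinc finger repressor, at 9.54, 5.82, 14.7 and 11.2 FPKM in 2i and at 0.818, 0.403, 0.404 and 0.858 FPKM in FBS (log2 difference 2.75, SE 0.21, adjusted p = 1.25e-07). Both were separated from FBS in every library, as was Cdx1. The lower side held the receptor Fzd7 (8.33 against 33 FPKM, log2 difference -1.86), the nuclear partner Lef1 (1.19 against 5.01 FPKM, log2 difference -1.47) and cyclin D1 (Ccnd1; 17.4 against 40.2 FPKM, log2 difference -1.17). Tcf7, another nuclear partner of beta-catenin, overlapped between media (25.4 against 23.9 FPKM, log2 difference 0.10, adjusted p = 0.378).

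Targets of LIF and STAT3 split. Of this list, 10 of 21 tested genes were called higher and 6 lower (median log2 difference 0.16). Socs3, the feedback inhibitor of STAT3, was lower in 2i, at 17.7, 25.3, 9.44 and 16.7 FPKM in 2i and at 38.2, 47.5, 40.4 and 39.3 FPKM in FBS (log2 difference -1.28, SE 0.21, adjusted p = 9.71e-05). Pramel7 was higher, at 5.0, 3.42, 19.4 and 13 FPKM in 2i and at 0.305, 0.20, 0.221 and 0.423 FPKM in FBS (log2 difference 2.86, SE 0.38, adjusted p = 2e-05), with a wide range in 2i and close copies in its family. Stat3 itself was not called (23.3 against 20.5 FPKM, log2 difference 0.16, adjusted p = 0.115), though without 2i replicate 3 its difference was 0.27 with an adjusted p of 0.00166. Of the BMP and TGF-beta targets, 6 of 16 tested genes were called higher and 10 lower (median log2 difference -0.60). The Id factors, which block bHLH proteins, did not move together: Id1 (11.3 against 23.8 FPKM, log2 difference -1.0) and Id2 (29.5 against 68.6 FPKM, log2 difference -1.22) were lower and Id3 was higher (142 against 66.1 FPKM, log2 difference 1.11). Skil, a repressor of SMAD signalling, was lower (10.7 against 27.3 FPKM, log2 difference -1.27).

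In the Nodal pathway, 5 of 15 tested genes were called higher and 6 lower. The extracellular inhibitor Lefty1 was among the genes with the largest differences lower in 2i (mm9, chromosome 1, 182865170 to 182868532). It stood at 2.2, 1.11, 2.49 and 1.99 FPKM in 2i and at 98.7, 54.3, 111 and 111 FPKM in FBS (log2 difference -4.97, SE 0.21, adjusted p = 7.29e-10). FBS replicate 2 held the least of the FBS libraries, yet more than 50 FPKM above every 2i library. Lefty2 was lower as well, at 6.97, 4.57, 10.2 and 15.9 FPKM in 2i and at 29, 19.8, 26.2 and 46.3 FPKM in FBS (log2 difference -1.64, SE 0.32, adjusted p = 0.000527). The ligand Nodal was higher (49.7 against 26.9 FPKM, log2 difference 0.86), and so was Pcsk6, the protease that matures it (30.1 against 9.57 FPKM, log2 difference 1.56). In the libraries labelled knockout Lefty1 was at 21.9 ± 2.21 FPKM and Lefty2 at 45 ± 12.8 FPKM.

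Actin and serum response genes were lower in 2i, the medium without serum. Of this list, 5 of 40 tested genes were called higher and 28 lower (median log2 difference -0.72), and 19 were 2-fold or more lower, 47.5% against 5.59% of all genes. Tagln, transgelin of smooth muscle, stood at 3.63, 4.37, 5.21 and 6.23 FPKM in 2i and at 48.8, 28.6, 30.6 and 30.8 FPKM in FBS (log2 difference -2.59, SE 0.18, adjusted p = 4.47e-08). S100a6 (19.2 against 152 FPKM, log2 difference -2.93), the tropomyosin Tpm1 (49.8 against 155 FPKM, log2 difference -1.61) and the galectin Lgals1 (79.9 against 269 FPKM, log2 difference -1.74) were lower. Actb, the most abundant member, overlapped between media (1051 ± 102 FPKM in 2i and 1018 ± 111 FPKM in FBS; log2 difference 0.048, SE 0.082, adjusted p = 0.615). The members called higher were Actn1, Ccn1, Ccn2, Amotl2 and Cnn3, of which Cnn3 (392 against 159 FPKM, log2 difference 1.30) and the YAP target Ccn2 (162 against 86.9 FPKM, log2 difference 0.88) had the highest levels in 2i. The list shares Krt8 with the trophoblast list.

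Serum response factor (SRF) binds the CArG box, a 10-base motif, and the promoters of the list were searched for it. Promoters came from RefSeq (GRCm38.p6) as the 250 bases before and 50 after a start site. The motif was searched in all 300 bases of each promoter, and being its own reverse complement it was found on both strands at once. Of 33 tested list members with a promoter, 8 (24.2%) held a CArG box in at least 1 promoter, against 1.81% of the 27025 genes with a promoter in the RefSeq table. In Anxa5 the box was not within the upstream bases, and in the other 7 genes it was. The list was drawn up from genes known to respond to serum and actin, so the share describes the list. A match is a description of the sequence and not evidence of binding. The upstream 250 bases of 6 of these genes are shown, 5′ to 3′ on the gene's strand with the CArG box in capitals, since they allow members that were lower in 2i to be set beside members that were not called.

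Cnn2: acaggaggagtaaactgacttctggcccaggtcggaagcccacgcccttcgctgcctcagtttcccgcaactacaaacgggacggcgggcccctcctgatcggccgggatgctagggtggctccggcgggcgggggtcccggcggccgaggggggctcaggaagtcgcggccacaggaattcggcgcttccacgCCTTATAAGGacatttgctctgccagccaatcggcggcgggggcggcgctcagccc

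Actg1: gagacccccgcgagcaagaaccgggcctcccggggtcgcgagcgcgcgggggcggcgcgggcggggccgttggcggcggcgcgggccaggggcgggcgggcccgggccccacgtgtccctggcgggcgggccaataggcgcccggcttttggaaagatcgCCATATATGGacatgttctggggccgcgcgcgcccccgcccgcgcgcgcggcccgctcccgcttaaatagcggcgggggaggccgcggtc

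Myl9: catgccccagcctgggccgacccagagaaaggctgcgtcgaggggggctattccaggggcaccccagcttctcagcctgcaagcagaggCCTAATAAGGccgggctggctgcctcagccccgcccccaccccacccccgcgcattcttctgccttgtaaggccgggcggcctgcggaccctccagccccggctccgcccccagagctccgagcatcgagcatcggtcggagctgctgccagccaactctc

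Fhl2: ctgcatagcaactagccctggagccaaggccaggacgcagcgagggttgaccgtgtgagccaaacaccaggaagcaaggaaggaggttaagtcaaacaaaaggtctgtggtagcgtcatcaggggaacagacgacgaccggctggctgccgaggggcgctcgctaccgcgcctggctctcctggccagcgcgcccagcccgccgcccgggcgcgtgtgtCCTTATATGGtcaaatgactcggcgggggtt

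Vcl: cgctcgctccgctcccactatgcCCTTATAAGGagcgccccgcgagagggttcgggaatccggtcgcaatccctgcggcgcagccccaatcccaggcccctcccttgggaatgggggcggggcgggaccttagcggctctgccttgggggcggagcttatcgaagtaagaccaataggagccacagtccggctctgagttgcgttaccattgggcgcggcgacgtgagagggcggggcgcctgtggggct

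Srf: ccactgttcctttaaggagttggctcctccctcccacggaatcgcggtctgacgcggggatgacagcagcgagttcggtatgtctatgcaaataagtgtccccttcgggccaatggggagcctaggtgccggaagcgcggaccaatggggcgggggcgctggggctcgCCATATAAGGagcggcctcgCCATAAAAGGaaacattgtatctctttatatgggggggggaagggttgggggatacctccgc

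The windows were chr10:79988350-79988599, plus strand for Cnn2, chr11:120348496-120348745, minus strand for Actg1, chr2:156775214-156775463, plus strand for Myl9, chr1:43163962-43164211, minus strand for Fhl2, chr14:20929148-20929397, plus strand for Vcl and chr17:46556163-46556412, minus strand for Srf. Counted from the start site, the box in the promoter shown for Fhl2 began at base -31, that of Cnn2 at -56, that of Actg1 at -90, that of Myl9 at -161 and that of Vcl at -227, and Srf had 2, at -82 and -62. A further promoter of Fhl2 (chr1:43196762-43197011, minus strand) held a box at -96. Calponin 2 (Cnn2) stood at 24.9, 28, 21.3 and 23.7 FPKM in 2i and at 75.5, 65.5, 65.2 and 62.6 FPKM in FBS (log2 difference -1.42, SE 0.10, adjusted p = 4.23e-08). Cytoplasmic gamma-actin (Actg1) stood at 455, 413, 654 and 557 FPKM in 2i and at 956, 865, 892 and 976 FPKM in FBS (log2 difference -0.85, SE 0.11, adjusted p = 1.66e-05). Both were lower in every 2i library than in any FBS library. The myosin light chain Myl9 (2.88 against 9.85 FPKM, log2 difference -1.49) and the LIM protein Fhl2 (1.56 against 4.71 FPKM, log2 difference -1.15) were lower too. Vinculin (Vcl) was not called (24.1 ± 2.42 FPKM in 2i and 23.7 ± 2.3 FPKM in FBS; adjusted p = 0.82), nor was Srf (23.1 ± 3.48 FPKM in 2i and 26.6 ± 2.15 FPKM in FBS; adjusted p = 0.0501). Srf was lower and called without 2i replicate 3, at -0.30 with an adjusted p of 0.00068. These 6 genes were named after their values were seen.

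Epithelial and junction genes were lower in 2i. Of this list, 4 of 33 tested genes were called higher and 26 lower (median log2 difference -1.08), and 17 were 2-fold or more lower, 51.5% against 5.59% of all genes. Beside Esrp1, Rab25, a GTPase of epithelial recycling (log2 difference -3.19, SE 0.14, adjusted p = 8.77e-10), the gap junction gene Gja1 (18.7 against 142 FPKM, log2 difference -2.92) and the adhesion molecule Epcam (40.2 against 136 FPKM, log2 difference -1.73) were lower. Gja1 was at 12.9, 13.1, 24 and 24.9 FPKM in 2i, with replicates 3 and 4 above 1 and 2. E-cadherin (Cdh1) was not called (121 ± 11 FPKM in 2i and 118 ± 6.83 FPKM in FBS; adjusted p = 0.601), and Spint1, a protease inhibitor of epithelia, was higher (60.1 against 20.8 FPKM, log2 difference 1.46). Cldn4, the most abundant claudin here, was lower (86.6 against 193 FPKM, log2 difference -1.22).

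The extracellular matrix list held genes called in both directions and shares members with the fibroblast markers. Of it, 19 of 35 tested genes were called higher and 10 lower (median log2 difference 0.34). The 11 members that are fibroblast markers had 9 higher and 1 lower, and the 24 others 10 higher and 9 lower. With the fibroblast level as a covariate, to which those 11 members contribute, the counts were 11 higher and 13 lower. Col3a1, a fibrillar collagen, stood at 38.3, 44, 56.8 and 67.9 FPKM in 2i and at 6.25, 4.58, 5.65 and 4.36 FPKM in FBS (log2 difference 3.06, SE 0.19, adjusted p = 1.93e-08). Lox, which crosslinks collagen, stood at 26.1, 26, 40.2 and 45.7 FPKM in 2i and at 3.88, 2.62, 4.67 and 2.79 FPKM in FBS (log2 difference 2.96, SE 0.22, adjusted p = 9.65e-08). For both, 2i replicates 3 and 4 held more than replicates 1 and 2, and the same held for the proteoglycan Dcn (7.3, 8.99, 10.2 and 12.9 FPKM in 2i, 0.513, 0.413, 0.442 and 0.723 FPKM in FBS) and for Col1a1 (51.9, 61.9, 79 and 85.1 FPKM in 2i). These genes are themselves fibroblast markers. Bgn was called higher by 0.43, but was -0.585 (adjusted p = 0.000166) with that covariate. The basement membrane gene Nid1 (108, 118, 91.9 and 95.8 FPKM in 2i, 17.5, 20.8, 20.1 and 15.1 FPKM in FBS) and the matrix gene Fn1 (245 against 121 FPKM, log2 difference 1.01) were higher without that order of replicates. Col4a1, also of basement membrane, was lower (7.71 against 19.9 FPKM, log2 difference -1.28).

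The enzymes that write new DNA methylation were lower in 2i, while those that maintain it changed little. Dnmt3b, a de novo methyltransferase, stood at 8.6, 7.54, 13.4 and 10.6 FPKM in 2i and at 121, 87.3, 87.8 and 115 FPKM in FBS (log2 difference -3.25, SE 0.17, adjusted p = 4.53e-09). Its cofactor Dnmt3l stood at 26.8, 37.3, 21 and 47.1 FPKM in 2i and at 329, 280.3, 329 and 264 FPKM in FBS (log2 difference -3.20, SE 0.19, adjusted p = 1.73e-08). Dnmt3a was lower as well (6.14 against 22.7 FPKM, log2 difference -1.72). None of the 3 overlapped between media. The maintenance methyltransferase Dnmt1 differed by -0.10 (adjusted p = 0.0216) and its partner Uhrf1 by 0.30. Of the oxidizing enzymes, Tet2 was higher (19 against 8.08 FPKM, log2 difference 1.14) and Tet1 lower (19.4 against 29.5 FPKM, log2 difference -0.58), and Gadd45a was lower (28.6 against 123 FPKM, log2 difference -2.08). Over the whole methylation list, 6 of 17 tested genes were called higher and 8 lower (median log2 difference -0.10).

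Of the Polycomb list, 12 of 28 tested genes were called higher and 10 lower (median log2 difference 0.069), shares close to those of all genes. Phf19, a Polycomb-like subunit, was the largest (1.69 against 13.3 FPKM, log2 difference -2.37), and Phc1, the most abundant member, was also lower (123 against 202 FPKM, log2 difference -0.73). The core subunit Suz12 was higher by 0.44, and Ezh2 was not called (73.1 against 69.7 FPKM, log2 difference 0.062, adjusted p = 0.465), with a difference of -0.065 once the chromosome 6 offset was removed. Hox and related homeobox genes, which are Polycomb targets in ESCs, were higher in 2i at low levels. Of these, 14 of 16 tested genes were called higher and 1 lower (median log2 difference 0.81), and 16 further members stayed under the filter. Either group in 2i, wild type or labelled knockout, could meet that filter alone, as could FBS. Genes of such low level thus passed more easily when high in 2i, and these counts follow in part from the filter. An example is Hoxc13, which was under 1 FPKM in every FBS library and passed through 2i alone. Hoxc13 stood at 6.36, 6.41, 5.85 and 6.79 FPKM in 2i and at 0.817, 0.953, 0.989 and 0.88 FPKM in FBS (log2 difference 1.94, SE 0.066, adjusted p = 1.33e-10). Its groups were wide apart relative to their spread. Irx3 was the member called lower (0.973 against 1.79 FPKM, log2 difference -0.51).

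Imprinted genes, expressed from 1 parental copy, differed strongly in both directions. Of these, 4 of 25 tested genes were called higher and 14 lower (median log2 difference -0.61). Peg10, a retrotransposon-derived gene of the placenta (chromosome 6, 4697306 to 4710516 on mm9), stood at 13.7, 24.1, 7.42 and 14.9 FPKM in 2i and at 376, 424, 300.3 and 379 FPKM in FBS (log2 difference -4.63, SE 0.32, adjusted p = 5.42e-08). Nnat (1.31 against 25.5 FPKM, log2 difference -3.51), the growth inhibitor Cdkn1c (2.13, 1.79, 1.56 and 1.38 FPKM in 2i, 23.6, 18.7, 6.9 and 7.55 FPKM in FBS), Mest (13.7 against 52.9 FPKM, log2 difference -1.98), Peg3 (24.2 against 91 FPKM, log2 difference -1.90) and Snrpn (45 against 135 FPKM, log2 difference -1.57) were lower. Cdkn1c was split within FBS, with replicates 1 and 2 above 18 FPKM and replicates 3 and 4 under 8 FPKM. Plagl1, a zinc finger regulator of other imprinted genes, was higher, at 33.9, 32.9, 29.8 and 39.1 FPKM in 2i and at 3.02, 3.36, 2.32 and 3.69 FPKM in FBS (log2 difference 3.10, SE 0.10, adjusted p = 1.03e-10). Xlr3b, which has close copies, was higher as well (23.1 against 1.42 FPKM, log2 difference 3.37). Whether 1 or both copies were read cannot be seen from these values.

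Most oxidative phosphorylation genes were slightly higher in 2i, while glycolysis genes went in both directions. For glycolysis, 5 of 24 tested genes were called higher and 11 lower (median log2 difference -0.20), 45.8% lower against 35.3% of all genes, and the 5 that reached 2-fold, all lower, were Pdk1, Slc16a3, Slc2a1, Ldha and Pfkl. Pdk1, a kinase that inhibits pyruvate dehydrogenase, stood at 9.09, 11, 6.17 and 10.7 FPKM in 2i and at 50.6, 53.4, 60.2 and 42.6 FPKM in FBS (log2 difference -2.38, SE 0.16, adjusted p = 3.87e-08). Lactate dehydrogenase A (Ldha) stood at 236, 259.5, 191 and 269.8 FPKM in 2i and at 548, 512, 604 and 547 FPKM in FBS (log2 difference -1.21, SE 0.094, adjusted p = 1.47e-07). In every 2i library both were lower than in any FBS library. The glucose carrier Slc2a1 (116 against 284 FPKM, log2 difference -1.30), the lactate carrier Slc16a3 (21.1 against 56.4 FPKM, log2 difference -1.39) and Pkm (576 against 1049 FPKM, log2 difference -0.86) were lower, whereas the other glucose carrier Slc2a3 (638 against 448 FPKM, log2 difference 0.47) and Pfkp (94.3 against 53.2 FPKM, log2 difference 0.81) were higher. Eno1b was lower (717 against 1616 FPKM, log2 difference -1.17), though its reads cannot be told from those of its near-identical copy Eno1, and Aldoa was not called (933 against 1123 FPKM, log2 difference -0.24, adjusted p = 0.0653). Aldoa was lower and called without FBS replicate 4, at -0.325 (adjusted p = 0.0188), and without FBS replicate 2, at -0.30 (adjusted p = 0.039). Of the HIF targets, 4 of 22 tested genes were called higher and 11 lower (median log2 difference -0.23), 50.0% lower against 35.3% of all genes. Egln3 was lower (10.0 against 24.9 FPKM, log2 difference -1.23), but Vegfa (33 against 14.4 FPKM, log2 difference 1.17) and Kdm3a (63.5 against 28 FPKM, log2 difference 1.15) were higher. The HIF list shares Pdk1 and Slc2a1 with glycolysis.

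Of oxidative phosphorylation, 24 of 31 tested genes were called higher and 2 lower (median log2 difference 0.27), but only Cox5a reached 2-fold (log2 difference 1.01, SE 0.051, adjusted p = 3.74e-09). Ndufb8 of complex I (220.4 against 132 FPKM, log2 difference 0.74) and Uqcrb of complex III (55.1 against 34.4 FPKM, log2 difference 0.67) followed. Cox4i1 (488 against 699 FPKM, log2 difference -0.52) and Uqcrfs1 (-0.11) were the members called lower. Atp5b, the most abundant, was higher by 0.27. With the fibroblast level as a covariate, 15 members were called higher and 1 lower.

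Genes of fatty acid synthesis were higher in 2i, while sterol synthesis leaned lower. For fatty acids, 14 of 20 tested genes were called higher and 3 lower (median log2 difference 0.52). Acacb, an acetyl-CoA carboxylase, stood at 14.9, 14.8, 15.8 and 16.5 FPKM in 2i and at 3.81, 3.73, 3.42 and 3.6 FPKM in FBS (log2 difference 1.83, SE 0.055, adjusted p = 6.98e-11). Thrsp (4.99 against 0.456 FPKM, log2 difference 2.02), the malic enzyme Me1 (13.6 against 4.58 FPKM, log2 difference 1.37) and the desaturases Scd1 (65.3 against 24.6 FPKM, log2 difference 1.34) and Scd2 (214 against 104 FPKM, log2 difference 1.03) were higher. For sterols, 5 of 28 tested genes were called higher and 14 lower (median log2 difference -0.22), 50.0% lower against 35.3% of all genes. Idi1 was the member lower by 2-fold (20.1 against 41.6 FPKM, log2 difference -1.02). The sterol isomerase Ebp was higher, at 30.9, 31.1, 34.9 and 56.1 FPKM in 2i and at 8.2, 8.16, 7.96 and 19.9 FPKM in FBS (log2 difference 1.76, SE 0.25, adjusted p = 3.73e-05), and lies in the chromosome X stretch, where replicate 4 exceeded the others in both media. The cholesterol exporter Abca1 was higher (4.09 against 1.26 FPKM, log2 difference 1.17), and Srebf2, the regulator of the pathway, was not called (74.3 against 71.7 FPKM, log2 difference 0.045, adjusted p = 0.619).

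Genes of the amino acid response leaned higher in 2i. Of the ATF4 list, 15 of 25 tested genes were called higher and 3 lower (median log2 difference 0.37), 60.0% higher against 37.1% of all genes. Asparagine synthetase (Asns) stood at 687, 738, 613 and 758 FPKM in 2i and at 161, 130.3, 173 and 135 FPKM in FBS (log2 difference 2.22, SE 0.087, adjusted p = 4.28e-10). Nupr1, a stress-induced nuclear protein (125 against 31.4 FPKM, log2 difference 1.96), Cth, which makes cysteine (143 against 39.5 FPKM, log2 difference 1.83), and the cationic amino acid carrier Slc7a1 (27.4 against 9.11 FPKM, log2 difference 1.49) were higher. Slc7a3, a carrier of the same family, was lower (34 against 62.3 FPKM, log2 difference -0.89). Only the FBS medium is listed with added nonessential amino acids, a group that includes asparagine, and the part of that difference was not tested. Mouse ESCs break down threonine to feed the folate cycle. Of that list, 6 of 16 tested genes were called higher and 9 lower (median log2 difference -0.17), where Tdh (161 against 121 FPKM, log2 difference 0.42) and Gcat (44.9 against 25.7 FPKM, log2 difference 0.78), the enzymes of threonine breakdown, were higher. Gldc (26.3 against 96.9 FPKM, log2 difference -1.88) and Amt (80.3 against 35.1 FPKM, log2 difference 1.17), both of the glycine cleavage system, went in opposite directions.

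Lysosome and autophagy genes leaned higher. Of these, 19 of 31 tested genes were called higher and 4 lower (median log2 difference 0.29), 61.3% higher against 37.1% of all genes. Mitf, a regulator of lysosomal genes, stood at 7.2, 8.86, 4.22 and 8.47 FPKM in 2i and at 1.16, 1.28, 1.16 and 1.38 FPKM in FBS (log2 difference 1.82, SE 0.17, adjusted p = 6.99e-07). The cholesterol carrier Npc2 (92.7 against 42.7 FPKM, log2 difference 1.10) and the lysosomal membrane protein Lamp2 (40.4 against 19.2 FPKM, log2 difference 1.05) were higher. Ctsd, the most abundant, was higher by 0.24, and its adjusted p was 0.0524 without both replicate 4 libraries. Tfe3, which GSK3 and nutrient signals keep out of the nucleus, was lower (20.7, 23.4, 18.2 and 43.5 FPKM in 2i, 46.4, 49.4, 42.8 and 89.2 FPKM in FBS) and lies in the chromosome X stretch.

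Of the p53 targets, 13 of 20 tested genes were called higher and 4 lower (median log2 difference 0.33), 65.0% higher against 37.1% of all genes. The cell cycle inhibitor Cdkn1a, p21, stood at 125, 143, 131 and 141 FPKM in 2i and at 47.1, 35.1, 41.2 and 30.6 FPKM in FBS (log2 difference 1.8, SE 0.11, adjusted p = 2.49e-08), and the cytokine Gdf15 was higher (15.2 against 2.89 FPKM, log2 difference 2.05). Trp53 itself (105.2 against 153 FPKM, log2 difference -0.54) and Perp (6.57 against 22.9 FPKM, log2 difference -1.66) were lower, and Bax was not called (222 against 242 FPKM, log2 difference -0.12, adjusted p = 0.0577). For the cell cycle, 14 of 33 tested genes were called higher and 11 lower (median log2 difference -0.053). Cyclin E1 (Ccne1), which drives entry into S phase, stood at 49.9, 49.1, 51.4 and 57.6 FPKM in 2i and at 146, 156, 117 and 169 FPKM in FBS (log2 difference -1.47, SE 0.10, adjusted p = 3.23e-08). Cdk4 was lower (log2 difference -0.13, adjusted p = 0.0415), a call that did not hold in 14 of the 27 alternatives, and Cdkn1b was higher (20.2 against 10.3 FPKM, log2 difference 0.88).

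Myc genes and their growth targets were lower in 2i. Of this list, 3 of 30 tested genes were called higher and 22 lower (median log2 difference -0.35). Mycn stood at 25.1, 27.1, 27.2 and 23.4 FPKM in 2i and at 89, 104, 100.4 and 96.6 FPKM in FBS (log2 difference -1.88, SE 0.064, adjusted p = 1.33e-10), and Myc, at a lower level, at 4.43, 3.88, 6.82 and 5.01 FPKM in 2i and at 16, 14.7, 10.5 and 16.6 FPKM in FBS (log2 difference -1.36, SE 0.15, adjusted p = 3.31e-06). Neither overlapped between media. Odc1, which makes polyamines and is a direct Myc target (95 against 228 FPKM, log2 difference -1.25), and the nucleolar protein Npm1, the most abundant member (316 against 502 FPKM, log2 difference -0.67), were lower. The 3 members called higher were Rrs1, Mxd1 and Mxd3, by 0.26, 0.29 and 0.47.

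The remaining lists held genes called in both directions. Of antioxidant genes, 14 of 29 tested genes were called higher and 11 lower (median log2 difference 0.14), none of them 2-fold, with Gpx1 higher (529 against 269.5 FPKM, log2 difference 0.98) and Hmox1 (57.6 against 115 FPKM, log2 difference -0.98) and Gclm (24.3 against 47.3 FPKM, log2 difference -0.94) lower. Of iron and metal genes, 5 of 18 tested genes were called higher and 9 lower (median log2 difference -0.17), with the importer Slc39a14 (3.14 against 21 FPKM, log2 difference -2.41) and Mt3 (1.61 against 11.3 FPKM, log2 difference -2.26) lower, Tfrc higher (119 against 89.2 FPKM, log2 difference 0.41), Fth1 lower (458 against 698 FPKM, log2 difference -0.61) and Ftl1 not called. Of retinoic acid genes, 7 of 15 tested genes were called higher and 4 lower (median log2 difference 0.32), with Dhrs3 higher (4.93 against 0.839 FPKM, log2 difference 1.68) and Crabp2 lower (4.29 against 15.5 FPKM, log2 difference -1.60). Of glucocorticoid response genes, 3 of 14 tested genes were called higher and 7 lower (median log2 difference -0.20). Lcn2 was higher (3.17 against 0.0125 FPKM, log2 difference 2.03), as was Klf9 (88.6 against 50.3 FPKM, log2 difference 0.80). Of interferon and innate immune genes, 7 of 17 tested genes were called higher and 5 lower (median log2 difference 0.12), with Ifitm1 (57.2 against 221 FPKM, log2 difference -1.96) and the RNA sensor Ddx58 (2.38 against 6.83 FPKM, log2 difference -1.22) lower and Oas1a higher (3.92 against 1.43 FPKM, log2 difference 1.04).

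**Figure D4:**
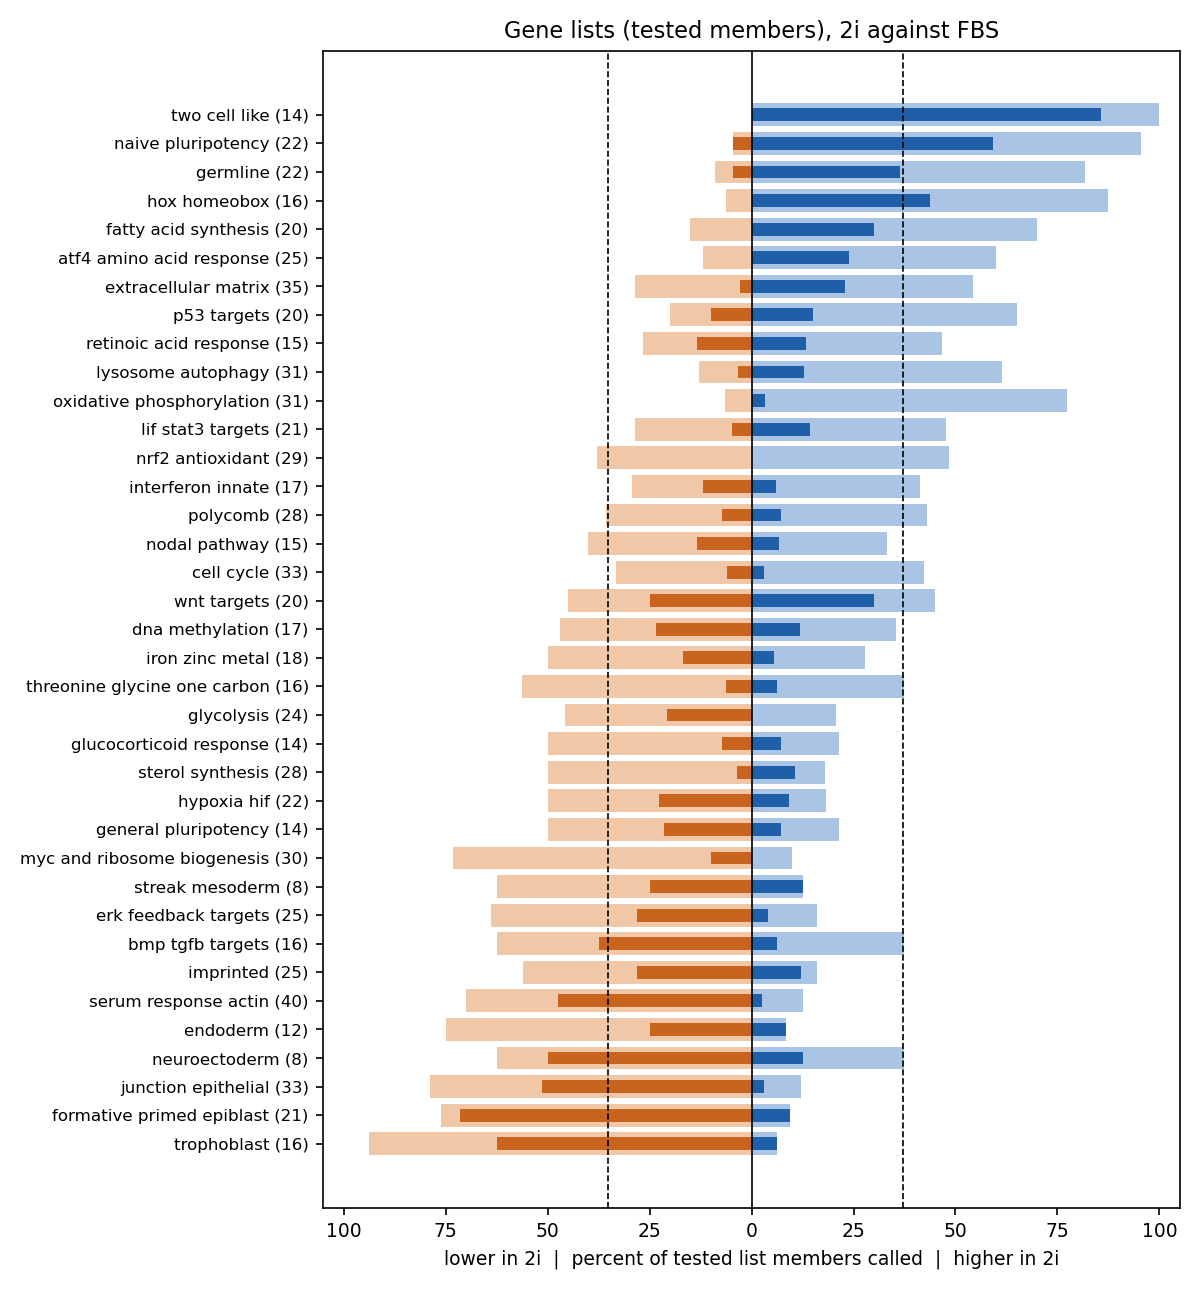
Percent of the tested members of each of 37 gene lists (number tested in brackets) called higher in 2i (right) and lower (left), with those that reached log2 1 in the darker bars and the share over all 12329 genes as dashed lines at 37.1 and 35.3. Lists are ordered by their median log2 difference, from 2-cell-like at the top (2.9) to trophoblast at the bottom (-1.49).

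By chromosome, X held the largest share of genes lower in 2i. Of its 435 tested genes, 62 (14.3%) were 2-fold or more lower, against 5.59% over all genes and 2.41% to 7.57% on the autosomes. Without both replicate 4 libraries there were 65 (14.9%). Among all tested genes of X but the 35 counted in the stretch where these libraries stood apart, there were 53 of 400 (13.2%). The X-linked genes higher by 2-fold were 35 (8.05%), near the 7.09% of all genes. Rhox9, Nrk, Ldoc1 and Plac1 are among the lower genes. On chromosome 6, 41.1% of genes were called higher and 23.7% lower, and the part of the library offsets given above in these shares was not tested.

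In some genes the level was divided among transcripts differently in the 2 media. Where 2 or more RefSeq entries of a gene were listed and its level averaged at least 5 FPKM, the share of each entry in the gene was compared, for 1787 genes. In 636 (35.6%) some entry's share did not overlap between media, and in 95 (5.32%) the means were also at least 20 percentage points apart. Shares that do not overlap always give an exact two-sided permutation p of 0.0286, the smallest that 70 splits of 8 libraries allow. This p was thus fixed by the choice of these entries and adds no support. It was not adjusted.

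For Tfeb, a regulator of lysosomal genes, entry NM_001161722 held 96.8, 92.7, 93.3 and 98.0% in 2i and 52.1, 62.7, 49.3 and 50.8% in FBS. The total was not called (14.8 against 13.9 FPKM, log2 difference 0.086, adjusted p = 0.365). Entry NM_011549 was at 4.28% ± 3.39 in 2i and 46.3% ± 6.12 in FBS (SD, n = 4 each). These 2 entries start at different positions on mm9, 47873986 and 47922693 of chromosome 17. For Cdk2, a cyclin-dependent kinase, entry NM_183417 held 73.9% ± 6.98 in 2i and 35.7% ± 8.67 in FBS. For Mink1, a kinase, NM_016713 held 45.7% ± 6.81 and 3.75% ± 2.88, while the total was not called (12.5 against 12.8 FPKM, log2 difference -0.03). For Pfdn4, a prefoldin subunit, NM_001110152 held 65.2% ± 13.6 and 14.3% ± 11.1, with 2i replicate 1 apart from the others at 85.6%. How the authors' tool divided reads among entries of a gene is not given in the sources used here, and the shares rest on that division.

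**Figure D5:**
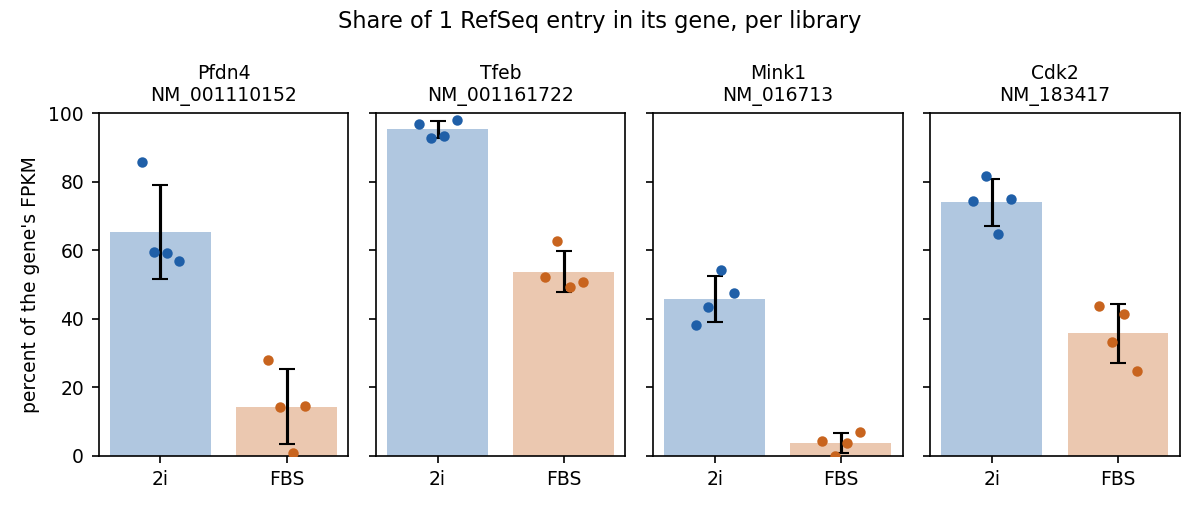
Share of 1 RefSeq entry in the FPKM of its gene (y axis, percent) for 4 genes with large changes, in 2i (blue) and FBS (orange), with a point per library, the mean as a bar and the SD as a line. In all 4 genes the 4 libraries in 2i lie above the 4 in FBS.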

How the data were processed

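RNA-seq libraries were made from total RNA with Trizol and a TruSeq kit, per the labels' protocols. CASAVA 1.8.2, Cufflinks (version not given) and mm9 are named in the submitters' processing notes, while the aligner is not given in the sources used here. FPKM values and an estimation status per RefSeq entry are what the authors deposited, in 1 table. Since FPKM divide by length and library size, absolute depth is unknown and no count test was run. Of 30761 entries, 98.8% got a symbol from RefSeq or GENCODE names, and entries of a symbol were summed to 23503 genes. The 7 genes with a failed estimate (listed at 0) were left out. Coordinates are 1-based. Promoters (GRCm38.p6) matched 79.3% of tested genes, under 80%, so a comparison of their CpG content is void and not reported.

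The limma model (version 3.58.1, R 4.3.3) had 1 mean per group over all 12 libraries on log2(FPKM + 1), with eBayes and an intensity trend, for genes with at least 1 FPKM in 4 libraries. P-values are two-sided and Benjamini-Hochberg adjusted over 12329 genes, and all adjusted p-values are from limma. Tested on simulated data with 200 of 12329 genes changed, the model recovered 85.4% of those set to 1.5-fold, 96.9% at 2-fold and 99.2% at 4-fold, and 5.06% of its calls were false. The folds were set on the log2(FPKM + 1) scale, and the simulated noise was independent between genes. In the data 72.4% of genes were called, so these rates do not describe the calls reported here. Python 3.11.15, numpy 2.4.6, pandas 2.3.3 and matplotlib 3.10.9 were used.

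The comparison, the 37 gene lists, the 8 marker lists and the genes were chosen with earlier results of these data known. Lists are described by counts and medians, without a test, and some share members. Genes were named by rule: 8 pluripotency factors; the 12 largest differences each way among called genes whose groups do not overlap (1 per family, no unnamed models, a mean of 2 FPKM or more in one medium); per list the 3 largest called members and the most abundant; the most abundant member per marker list; 5 genes with the largest transcript changes; and the 5 most abundant 2-fold genes. Genes named outside this rule were chosen after their values were seen. A few genes that the rule names are not reported here. Alternatives were other pseudocounts, filters and scalings, the 8 libraries alone, a replicate block, eBayes without trend, array weights, the highest entry per symbol, removal of the chromosome 6 offset, a fibroblast covariate, and leaving out each library. Leaving out both wild-type replicate 4 libraries was added after seeing the data.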

Additional observations from a re-analysis of the deposited data

Results flagged for a closer look

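In 18 of 482 checks of a named gene in 1 medium, 1 library lay apart from the other 3 by Dixon's test. Chance alone gives about 1 in 20 such cases. The libraries were 2i replicate 3 and 2i replicate 4, each for 4 genes, FBS replicate 3 for 4, FBS replicate 2 for 3, FBS replicate 4 for 2 and FBS replicate 1 for 1.

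In FBS replicate 2, Lefty1 was at 54.3 FPKM against 98.7 to 111 FPKM in the others, Plac8 at 16.5 against 28.1 to 30.3 FPKM, and Lcn2 at 0.0499 FPKM while the others were listed at 0. In FBS replicate 3, Ina was at 22.1 against 28.4 to 29.4 FPKM, Npc2 at 48.5 against 40.5 to 40.9 FPKM, Pgk1 at 259 against 180.0 to 187 FPKM, and Cd3g at 0.110 FPKM while the others were listed at 0. In FBS replicate 4, Hoxd9 was at 0.350 against 0.140 to 0.161 FPKM, and Ebp, in the chromosome X stretch, at 19.9 against 7.96 to 8.20 FPKM. In FBS replicate 1, Tagln was at 48.8 against 28.6 to 30.8 FPKM.

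In 2i replicate 3, Tet2 was at 17.1 against 19.4 to 19.9 FPKM, Pfkl at 45.7 against 53.7 to 54.7 FPKM, Pgk1 at 87.0 against 108 to 112 FPKM, and Plac1 at 0.0842 FPKM while the others were listed at 0. Pgk1 thus lay apart in replicate 3 of both media, below in 2i and above in FBS. In 2i replicate 4, Ndufb8 was at 212 against 222 to 224 FPKM, Gcat at 47.2 against 44.0 to 44.3 FPKM, Rab25 at 0.888 against 0.3996 to 0.437 FPKM, and Epcam at 45.1 against 38.4 to 38.8 FPKM.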

How the results depend on the processing

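Of 241 named genes, 200 kept direction and side of the threshold in all 27 alternatives. Against 874 genes 2-fold higher and 689 lower, a pseudocount of 0.01 gave 1325 and 1087, a pseudocount of 0.1 gave 1044 lower, TPM scaling 1081 lower, and a filter of 5 FPKM 431 lower. With the fibroblast covariate 2694 genes were higher against 4579. List members called higher and lower were then 11 and 2 for lysosome and autophagy and 8 and 1 for Hox genes. The majority turned for antioxidant genes, with 8 higher and 9 lower, and for the cell cycle, with 6 higher and 10 lower. Leaving out 1 library gave 4373 to 4663 higher, 4108 to 4338 lower, 855 to 908 2-fold higher and 665 to 738 2-fold lower. Transcript shares apart by 10 points numbered 300, against 95 at 20 points. Same-numbered wild-type libraries correlated in their deviations at 0.0272, 0.119, 0.0266 and 0.186, so the numbers were not taken as pairs. Only 2i replicates 2 and 4 correlated best with their own number, and replicate 4 of both media shared the chromosome X stretch given above. For replicate 4 the number may thus carry a pairing, and its origin was not tested. A replicate block gave 4582 higher and 4317 lower, with 875 and 690 at 2-fold.

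Signs turned for 11 genes, of which Bgn and Lif were called. With the fibroblast covariate the differences were 0.484 for Etv5, -0.037 for Actb, 0.035 for Mt2, -0.585 for Bgn, -0.145 for Tcf7, -0.016 for Cdh1, -0.212 for Vcl and -0.047 for Lif. With array weights they were 0.010 for Etv5, -0.018 for Actb and -0.091 for Vcl. Leaving out 1 library gave -0.068 to 0.035 for Etv5, -0.017 to 0.101 for Actb, -0.022 to 0.115 for Srebf2, -0.086 to 0.007 for Mink1, -0.015 to 0.085 for Cdh1, and -0.032 to 0.075 for Vcl. Ezh2 was -0.038 with the highest entry per symbol and -0.065 without the chromosome 6 offset. Without both wild-type replicate 4 libraries the values were 0.067 for Etv5, -0.004 for Srebf2, -0.038 for Vcl and -0.023 for Ezh2. The cause was not tested. Absolute depth is unknown, so differences of genes near the filter are the least certain.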

Other observations

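The noncoding genes Meg3, Rian and Mirg of an imprinted cluster on chromosome 12 were highest in replicate 4 of each group. For the cluster's coding genes Dlk1 and Dio3 this held in some groups and not in others. Dlk1 was at 0.478, 0.630, 0.768 and 1.06 FPKM in 2i, where replicate 4 was the highest. In FBS it was at 1.73, 1.53, 1.51 and 0.954 FPKM, where replicate 4 was the lowest. Dio3 was at 17.8, 15.7, 28.2 and 14.8 FPKM in 2i, where replicate 4 was the lowest. In FBS it was at 0.3932, 0.7554, 0.587 and 1.152 FPKM, where replicate 4 was the highest. In the libraries labelled knockout replicate 4 was the highest for both genes, at 0.8545 FPKM for Dlk1 and 7.989 FPKM for Dio3. Meg3, a long noncoding RNA, was at 10.6, 20.6, 9.81 and 42.0 FPKM in 2i and at 6.77, 6.60, 5.98 and 13.4 FPKM in FBS. In the libraries labelled knockout Meg3 was at 26.5, 12.01, 5.65 and 36.8 FPKM. Rian was at 6.48, 14.3, 4.95 and 31.0 FPKM in 2i and at 3.94, 4.84, 4.48 and 12.4 FPKM in FBS. None of Meg3, Rian and Mirg was called between the media (limma adjusted p = 0.0861, 0.232 and 0.265).

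Within the chromosome X stretch, Pim2, a kinase, was at 5.65, 6.15, 5.87 and 11.2 FPKM in 2i and at 41.2, 25.3, 29.3 and 90.6 FPKM in FBS. Eras, a Ras-like gene of ESCs, was at 8.33, 9.28, 5.51 and 13.8 FPKM in 2i and at 27.3, 32.4, 28.0 and 62.1 FPKM in FBS. Both were lower in 2i, and replicate 4 was the highest of each medium. These genes were chosen after their values were seen.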
